A study of Homo sapiens with 6 samples.

Results

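The proteasome genes were taken from the expression table by name, as every gene called PSMA, PSMB, PSMC, PSMD, PSME, PSMF or PSMG followed by digits alone, with at least 10 estimated counts in at least 3 of the 6 libraries. The name picked 48 of 58884 genes and 47 of these passed the count minimum. PSMB11, the thymus-specific catalytic subunit, fell below it with 3 counts in NC_1 and 0 in the other libraries, whereas the genes with the lowest counts inside it, PSMB9 and PSMA8, had at least 106 and 209 counts in every library. The 47 genes were divided into 42 constitutive or regulatory genes and 5 inducible ones, PSMB8, PSMB9, PSMB10, PSME1 and PSME2. A further 38 rows with a similar name were left out. All had a pseudogene or antisense suffix apart from PSMC3IP.

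RNA-seq was performed on immortalized human ventricular cardiomyocytes. They carried either negative control siRNA (NC, 3 libraries) or siRNA directed at the cold-inducible RNA-binding protein CIRBP (SiCIRBP, 3 libraries). The labels name the cells T0519, whereas the paper gives AC16 for its RNA-seq. The paper uses T0519 and AC16 as separate cells, so which of them was sequenced is not settled here. By the labels both groups came from 1 cell line, and none of the labels named a drug treatment. No source used here said that the libraries of a group were separate cultures, so p-values measure the spread between libraries. The study's own test used NC_2, NC_3, SiCIRBP_1 and SiCIRBP_3. The paper left out NC_1 and SiCIRBP_2 as the most discrepant libraries in correlation and principal component analysis of these same data. P-values from the 4 libraries kept do not account for this choice, which was made on the data being tested. That 4-library comparison was fitted first here and all 6 libraries were fitted beside it. Normalized counts (CPM, read counts scaled to library size by the TMM method) are used between libraries. TPM values, which also account for transcript length, are used between genes. Values of a group are listed in the order of libraries 1, 2 and 3.

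The 26S proteasome degrades proteins that carry ubiquitin chains. Its 20S core is a barrel of alpha and beta rings with the proteolytic sites on the inner face of the beta rings, and its 19S cap binds, deubiquitinates, unfolds and feeds the substrate into the core. Under interferon the constitutive catalytic subunits PSMB5, PSMB6 and PSMB7 can be replaced in newly built cores by PSMB8, PSMB9 and PSMB10 to form the immunoproteasome, and the PA28 cap of PSME1 and PSME2 is induced along with them, a switch best known for the supply of peptides to class I molecules. Heart muscle relies on the proteasome for turnover of sarcomeric and oxidized proteins.

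The targeted gene was lower in every SiCIRBP library. CIRBP was at 86.4, 85.8 and 91.0 CPM in the NC libraries and 54.8, 24.3 and 46.3 CPM in the SiCIRBP libraries. The corresponding log2 fold change over the 4 libraries was -0.81 ± 0.11 (SE), adjusted p = 0.00828. The libraries held between 25726259 and 29919566 estimated counts, and the 47 proteasome genes took 0.679%, 0.610% and 0.575% of these in NC and 0.692%, 0.878% and 0.734% in SiCIRBP. Of 11 cardiomyocyte markers, 8 were below 1 CPM in every library. The contractile genes TNNT2, MYH6 and MYL2 and the calcium channel gene RYR2 were among these 8. The sarcomeric gene ACTN2 and the cardiac transcription factor gene NKX2-5 were among the markers detected. The label of cardiomyocyte was therefore not borne out by most of the markers chosen for it. Of the 3 that could be tested over the 4 libraries, edgeR called 1 lower, adjusted p = 0.016, and 0 higher. Of all genes, 9.76% were called lower. The log2 fold changes of the 3 ranged from -1.24 to 2.44, with 1 of them above 0. VIM, a mesenchymal marker, ranged from 3429 to 4734 CPM, and 6 of 8 immune cell markers stayed below 1 CPM.

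The start regions of the 5 inducible genes are shown because their levels rose together in SiCIRBP_2. The constitutive genes rose less there, with a median log2 difference from the NC mean of 0.52 against 1.14 for the inducible genes. RefSeq promoter windows on GRCh38.p14, from 250 bases before the annotated start to 50 bases after it, were found for 41 of the 47 genes. They were searched on both strands for the interferon-stimulated response element in the form of 2 GAAA half-sites in the same orientation with 2 bases between them, and for the gamma-activated site in the form TTCNNNGAA. Matches to either are in capitals, a match on the other strand appears as its reverse complement, and the matches printed do not overlap each other. The first windows are chr6:32843998-32844297 on the minus strand for PSMB8, chr6:32853942-32854241 on the plus strand for PSMB9, chr16:67936801-67937100 on the minus strand for PSMB10, chr14:24135944-24136243 on the plus strand for PSME1 and chr14:24146561-24146860 on the minus strand for PSME2, each written 5′ to 3′ on the strand of the gene.
PSMB8: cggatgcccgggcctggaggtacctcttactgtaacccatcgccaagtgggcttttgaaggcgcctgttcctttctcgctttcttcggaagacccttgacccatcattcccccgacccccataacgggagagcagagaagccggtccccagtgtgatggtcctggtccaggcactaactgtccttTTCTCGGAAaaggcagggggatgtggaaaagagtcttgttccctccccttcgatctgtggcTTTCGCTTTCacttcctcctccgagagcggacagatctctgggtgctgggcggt
PSMB9: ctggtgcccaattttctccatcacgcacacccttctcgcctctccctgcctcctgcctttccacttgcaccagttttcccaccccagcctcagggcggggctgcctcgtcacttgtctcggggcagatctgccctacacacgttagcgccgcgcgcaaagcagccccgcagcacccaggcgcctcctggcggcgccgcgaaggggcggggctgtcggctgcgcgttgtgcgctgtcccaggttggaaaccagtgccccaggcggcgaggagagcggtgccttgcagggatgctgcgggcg
PSMB10: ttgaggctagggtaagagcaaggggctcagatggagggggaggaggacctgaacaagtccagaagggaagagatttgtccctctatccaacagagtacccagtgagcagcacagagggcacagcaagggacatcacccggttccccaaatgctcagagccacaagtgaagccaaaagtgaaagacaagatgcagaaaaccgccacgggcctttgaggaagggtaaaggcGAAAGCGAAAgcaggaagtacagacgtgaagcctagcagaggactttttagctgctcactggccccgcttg
PSME1: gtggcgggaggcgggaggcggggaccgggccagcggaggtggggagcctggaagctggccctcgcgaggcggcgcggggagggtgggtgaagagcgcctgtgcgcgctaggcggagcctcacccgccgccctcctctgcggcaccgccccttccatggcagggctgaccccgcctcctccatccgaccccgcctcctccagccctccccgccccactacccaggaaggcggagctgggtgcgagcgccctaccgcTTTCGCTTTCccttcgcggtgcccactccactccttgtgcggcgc
PSME2: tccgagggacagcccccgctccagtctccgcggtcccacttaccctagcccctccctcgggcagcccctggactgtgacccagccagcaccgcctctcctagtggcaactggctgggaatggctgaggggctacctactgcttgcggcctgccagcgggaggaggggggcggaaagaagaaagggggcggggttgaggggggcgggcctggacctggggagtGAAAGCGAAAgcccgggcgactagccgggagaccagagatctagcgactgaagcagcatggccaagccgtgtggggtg
The paired half-sites were present in a window of 4 of the 5 inducible genes, beginning 4 bases before the start in PSMB8, 21 before it in PSMB10, 28 before it in PSME2 and 5 after it in PSME1, and they were absent from the window of PSMB9. They were found in 3 of 36 constitutive genes with a window (PSMA4, PSMB4 and PSMG4) and in 4.38% of the 27305 genes in the table. The letters TTCNNNGAA were found in PSMB8 alone among the inducible genes, in 7 of 36 constitutive genes and in 9.38% of all genes. For the constitutive genes, 12 of 36 held the antioxidant-type element TGACNNNGC against 16.1% of all genes, and 18 of 36 held CCAAT against 39.7%. Of the 5 inducible genes, 3 held the former and 1 the latter. Such matches describe the letters of the window and were not taken as binding sites. PSMB8 and PSMB9 lie side by side on opposite strands at chr6:32840717-32844703 and chr6:32844136-32859585 in GENCODE 29, so that their annotated gene bodies overlap, and PSME1 and PSME2 are neighbours on chromosome 14 at chr14:24136158-24138967 and chr14:24143362-24147570. PSMB10 is located at chr16:67934502-67937087.

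To learn how the subunit genes as a whole stood after CIRBP knockdown, the 4-library comparison was considered first. Of the 42 constitutive genes, 17 were upregulated at an adjusted p under 0.05 and 0 were downregulated, where 9.62% of the 15421 genes tested were upregulated and 9.76% downregulated. The changes were small, from 1.23-fold to 1.60-fold, and no proteasome gene reached 2-fold, a size passed together with the p-value by 3.62% of all genes. The median log2 fold change of the 42 was 0.30 with 38 above 0, against a median of 0.00 over all genes tested, 49.8% of which were above 0. Among the 5 inducible genes 0 were called by edgeR or DESeq2 and 0 passed at an unadjusted p under 0.05, with 1 of 5 above 0 and a median of -0.10 that became 0.16 without SiCIRBP_1. The constitutive genes had 30 higher (18.2% of all genes) and 0 lower at the unadjusted threshold, and 21 higher (10.7% of all genes) and 0 lower in DESeq2. The difference between the inducible and the constitutive set was not tested. Of 8 fibroblast and mesenchymal markers, 6 were above 0 in this comparison and 1, COL1A1, was called, with a median log2 fold change of 0.35. Their summed level was 6758, 6607 and 6432 CPM in NC and 7143, 6730 and 10634 CPM in SiCIRBP, so that SiCIRBP_3 was the highest, and none was at 0 in every library. Their part in the change of the proteasome genes was not tested.

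**Figure D1:**
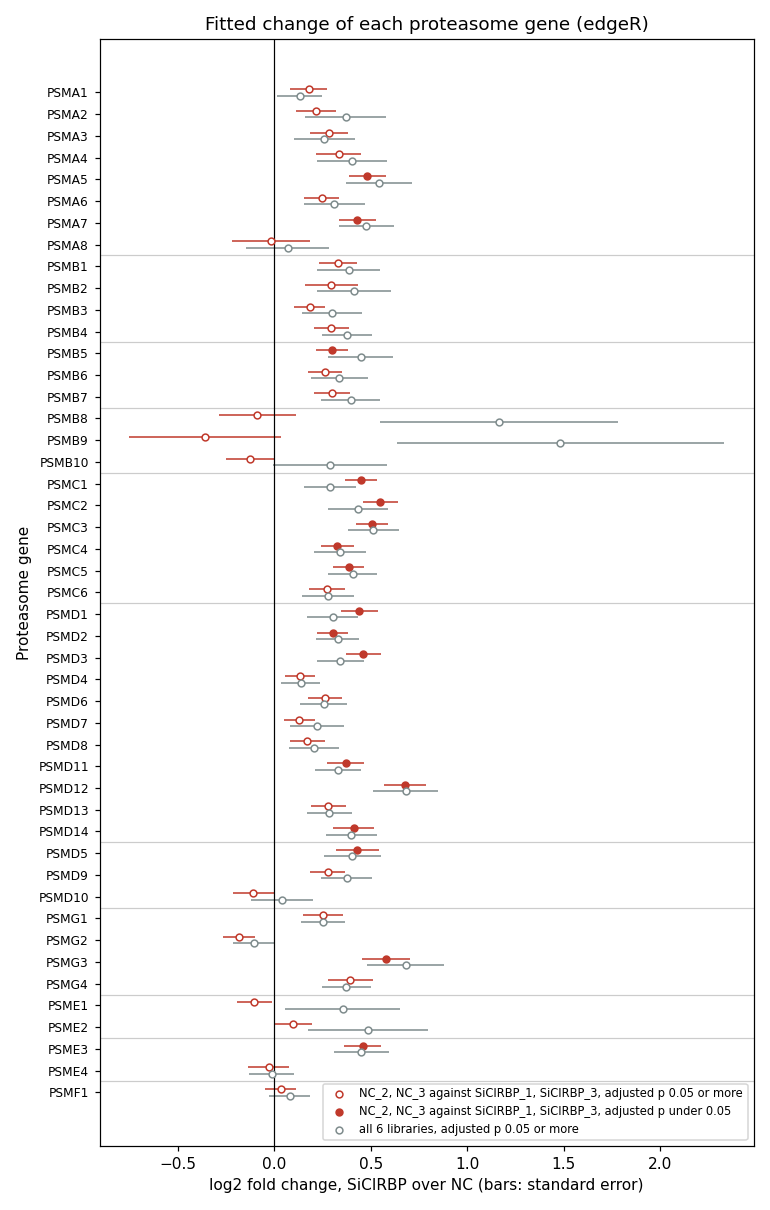
Fitted log2 fold change of each of the 47 proteasome genes, SiCIRBP over NC (horizontal axis, bars are standard errors), in the 4-library comparison (red) and over all 6 libraries (grey), with genes grouped by role from the 20S alpha ring at the top to the inhibitor PSMF1 at the bottom. Filled red points are the 17 genes with an adjusted p under 0.05, no grey point is filled, and PSMB8 and PSMB9 sit left of 0 in red and beyond 1 in grey.

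These 17 calls rested on both NC libraries. When either NC_2 or NC_3 was left out, 0 of the 17 passed, where 0.428% and 0.158% of all genes passed as higher, with adjusted p of the 17 between 0.0992 and 0.452, although their log2 fold changes stayed between 0.23 and 0.78 with any 1 library left out. At an unadjusted p under 0.05, 17 of the 17 were higher without NC_2, where 9.9% of all genes were, and 11 of the 17 without NC_3, where 8.19% of all genes were. The 17 had been called on libraries that these fits share. When SiCIRBP_1 was left out, 33 proteasome genes passed as higher, where 21.2% of all genes did, and PSMG2 passed as lower, where 23.1% did. When SiCIRBP_3 was left out, 32 passed as higher, where 19.1% of all genes did, and PSMB8 and PSMB9 passed as lower, where 21.1% did. In each of these fits 1 group had a single library, which was assumed to vary like the other group.

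Among the constitutive genes the 19S cap held 11 of the 17 edgeR calls, with 11 of its 17 subunit genes upregulated, where 9.62% of all genes were. Its ATPase ring, the unfolding motor of 6 PSMC proteins, contributed 5 of 6. PSMC2 changed most in the ring and was at 134, 103 and 93.2 CPM in the NC libraries and 139, 159.6 and 149 CPM in the SiCIRBP libraries. Its log2 fold change was 0.55 ± 0.09 (SE), adjusted p = 0.0137. PSMC3 was at 123, 108 and 101 CPM in the NC libraries and 152, 177 and 144 CPM in the SiCIRBP libraries, a log2 fold change of 0.51 ± 0.08 (SE), adjusted p = 0.0135. In both genes every SiCIRBP library exceeded every NC library, and NC_1 lay nearest to the SiCIRBP group.
PSMC1, with 140.4, 114 and 107 CPM in the NC libraries and 148, 139.9 and 154 CPM in the SiCIRBP libraries, had a log2 fold change of 0.45 ± 0.08 (SE), adjusted p = 0.0168. Here NC_1 and SiCIRBP_2 were nearly level, and 20.2% of the 31-base words of the PSMC1 transcripts also occur in the pseudogene PSMC1P1 and 73.4% in the overlapping gene NRDE2 on the other strand, so its reads may be shared. PSMC5 followed with 201, 180.4 and 171 CPM in the NC libraries and 221, 273 and 238 CPM in the SiCIRBP libraries, at 0.39 ± 0.08 (SE), adjusted p = 0.0237. PSMC4, with 126, 109.9 and 104 CPM in the NC libraries and 129, 163 and 139 CPM in the SiCIRBP libraries, was at 0.33 ± 0.08 (SE), adjusted p = 0.0409. Neither of these showed overlap between the groups. PSMC6 was the member of the ring that did not pass, at 0.27 ± 0.09 (SE), adjusted p = 0.0864, with 70.1, 61.0 and 57.5 CPM in the NC libraries and 74.8, 85.8 and 68.1 CPM in the SiCIRBP libraries, and NC_1 was above SiCIRBP_3 in it.

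Of the 11 non-ATPase subunit genes of the cap, 6 were upregulated. The largest change of all the 47 genes was that of PSMD12, a scaffold subunit of the lid. It was at 61.0, 47.3 and 47.5 CPM in the NC libraries and 69.6, 98.4 and 82.0 CPM in the SiCIRBP libraries, a log2 fold change of 0.68 ± 0.11 (SE), adjusted p = 0.012. NC_1 was again the NC library closest to SiCIRBP, and the groups were separate. PSMD3 and PSMD11, scaffold subunits of the lid as well, were at 0.46 ± 0.09 (SE), adjusted p = 0.0201 and 0.37 ± 0.10 (SE), adjusted p = 0.0404 on the log2 scale. PSMD3 had 229, 208 and 198 CPM in the NC libraries and 262, 247 and 297 CPM in the SiCIRBP libraries. PSMD11 had 177, 167 and 146 CPM in the NC libraries and 195, 211 and 209 CPM in the SiCIRBP libraries. Both were higher in every SiCIRBP library, and in PSMD3 the highest value was that of SiCIRBP_3.
PSMD1 and PSMD2 encode the large subunits of the base that dock ubiquitin receptors and shuttle factors. PSMD1 was at 165, 143 and 135 CPM in the NC libraries and 175, 169 and 203 CPM in the SiCIRBP libraries, which gave 0.44 ± 0.10 (SE), adjusted p = 0.0268. PSMD2, the most abundant transcript of the cap by TPM, was at 550.3, 527 and 493 CPM in the NC libraries and 607, 713 and 652 CPM in the SiCIRBP libraries, which gave 0.30 ± 0.08 (SE), adjusted p = 0.0443. PSMD14, the deubiquitinase of the cap, was at 98.7, 91.0 and 79.9 CPM in the NC libraries and 106, 128 and 121 CPM in the SiCIRBP libraries, with a log2 fold change of 0.41 ± 0.11 (SE), adjusted p = 0.04. All of these were separate between the groups. The lowest change in the class was that of PSMD7, the inactive partner of PSMD14, at 0.13 ± 0.08 (SE), adjusted p = 0.295, with 100.3, 93.9 and 89.7 CPM in the NC libraries and 99.2, 131 and 102 CPM in the SiCIRBP libraries; 28.4% of its 31-base words lie in AC009120.2 on the other strand. The ubiquitin receptor gene PSMD4 was close to it at 0.13 ± 0.08 (SE), adjusted p = 0.263.

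In the 20S core 3 of the 14 constitutive ring genes other than the testis-type PSMA8 were upregulated in edgeR, where 9.62% of all genes were, and 14 of 14 were above 0. DESeq2 called 7 of the 14 and 11 of the 17 cap genes, where it called 10.7% of all genes as higher. Over 6 libraries the median log2 fold change was 0.38 for the core and 0.33 for the cap. The difference between core and cap was not tested. In the alpha ring, which gates entry to the core, PSMA5 and PSMA7 were upregulated. PSMA5 was at 109, 94.2 and 83.3 CPM in the NC libraries and 119, 171 and 129 CPM in the SiCIRBP libraries, a log2 fold change of 0.48 ± 0.10 (SE), adjusted p = 0.021. PSMA7, whose mean of 882 TPM was the highest of the 47 genes, was at 462, 417 and 384 CPM in the NC libraries and 502, 679 and 576 CPM in the SiCIRBP libraries, a log2 fold change of 0.43 ± 0.10 (SE), adjusted p = 0.027. Both genes were higher in every SiCIRBP library, with SiCIRBP_2 the highest. PSMA8 was lowest of the ring both in level, with a mean of 6.14 TPM, and in change, with -0.02 ± 0.20 (SE), adjusted p = 0.964 and 11.5, 8.12 and 11.8 CPM in the NC libraries and 9.45, 13.3 and 10.3 CPM in the SiCIRBP libraries, and no group stood above the other in it.
Of the catalytic subunit genes, PSMB5, the chymotrypsin-like subunit, was at 201, 188 and 172 CPM in the NC libraries and 216, 323 and 227 CPM in the SiCIRBP libraries. Its log2 fold change of 0.30 ± 0.08 (SE), adjusted p = 0.0498 was the call nearest to the threshold. PSMB7, the trypsin-like subunit, was at 293, 274 and 249 CPM in the NC libraries and 303, 432 and 341 CPM in the SiCIRBP libraries, with 0.30 ± 0.09 (SE), adjusted p = 0.0675. PSMB6, the caspase-like subunit, was at 161, 148 and 135 CPM in the NC libraries and 164, 223 and 175 CPM in the SiCIRBP libraries, with 0.26 ± 0.09 (SE), adjusted p = 0.0786. Those values did not overlap between the groups in any of the 3 genes, although PSMB6 and PSMB7 missed the threshold in edgeR. DESeq2 on the same 4 libraries called PSMB7, adjusted p = 0.0465. The 4 structural beta genes gave 0 calls in edgeR and 2 at an unadjusted p under 0.05, where 18.2% of all genes were higher. Of these genes 4 of 4 were above 0, from 0.18 ± 0.08 (SE), adjusted p = 0.148 for PSMB3 to 0.33 ± 0.10 (SE), adjusted p = 0.0605 for PSMB1. PSMB1 had 210.1, 185 and 162 CPM in the NC libraries and 207, 292 and 229 CPM in the SiCIRBP libraries, so that NC_1 reached into the SiCIRBP range. DESeq2 on the same 4 libraries called PSMB1 and PSMB4 of this class.

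Assembly factors did not move as a block. Among the 4 chaperone genes of the 20S core, PSMG3 was upregulated, at 27.6, 22.9 and 21.5 CPM in the NC libraries and 30.4, 49.2 and 36.0 CPM in the SiCIRBP libraries, a log2 fold change of 0.58 ± 0.13 (SE), adjusted p = 0.0257. PSMG2 was the lowest of the class at -0.18 ± 0.08 (SE), adjusted p = 0.163, with 79.7, 84.3 and 83.1 CPM in the NC libraries and 75.2, 82.4 and 72.3 CPM in the SiCIRBP libraries. The groups were separate in PSMG3, whereas SiCIRBP_2 lay within the NC range in PSMG2. Among the 3 chaperone genes of the 19S base, PSMD5 was upregulated, at 0.43 ± 0.11 (SE), adjusted p = 0.0409, with 86.8, 73.2 and 67.6 CPM in the NC libraries and 86.4, 112 and 103 CPM in the SiCIRBP libraries. PSMD10, the oncoprotein gankyrin, was the lowest at -0.11 ± 0.11 (SE), adjusted p = 0.502, with 34.1, 33.8 and 31.1 CPM in the NC libraries and 30.5, 41.8 and 29.6 CPM in the SiCIRBP libraries. NC_1 exceeded SiCIRBP_1 in PSMD5, and SiCIRBP_2 was the highest library in PSMD10 while the other two SiCIRBP libraries were the lowest.

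Alternative caps differed from each other. PSME3, which forms the nuclear PA28 gamma cap that works without ubiquitin, was at 126, 112 and 96.3 CPM in the NC libraries and 142, 171 and 143 CPM in the SiCIRBP libraries, a log2 fold change of 0.46 ± 0.10 (SE), adjusted p = 0.0232. It was higher in every SiCIRBP library. PSME4, the PA200 cap known for histone degradation, was at 76.0, 83.0 and 79.5 CPM in the NC libraries and 86.4, 77.0 and 72.8 CPM in the SiCIRBP libraries, a log2 fold change of -0.03 ± 0.11 (SE), adjusted p = 0.868. The inhibitor gene PSMF1 stood at 0.03 ± 0.08 (SE), adjusted p = 0.796. Neither of the latter separated the groups.

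**Figure D2:**
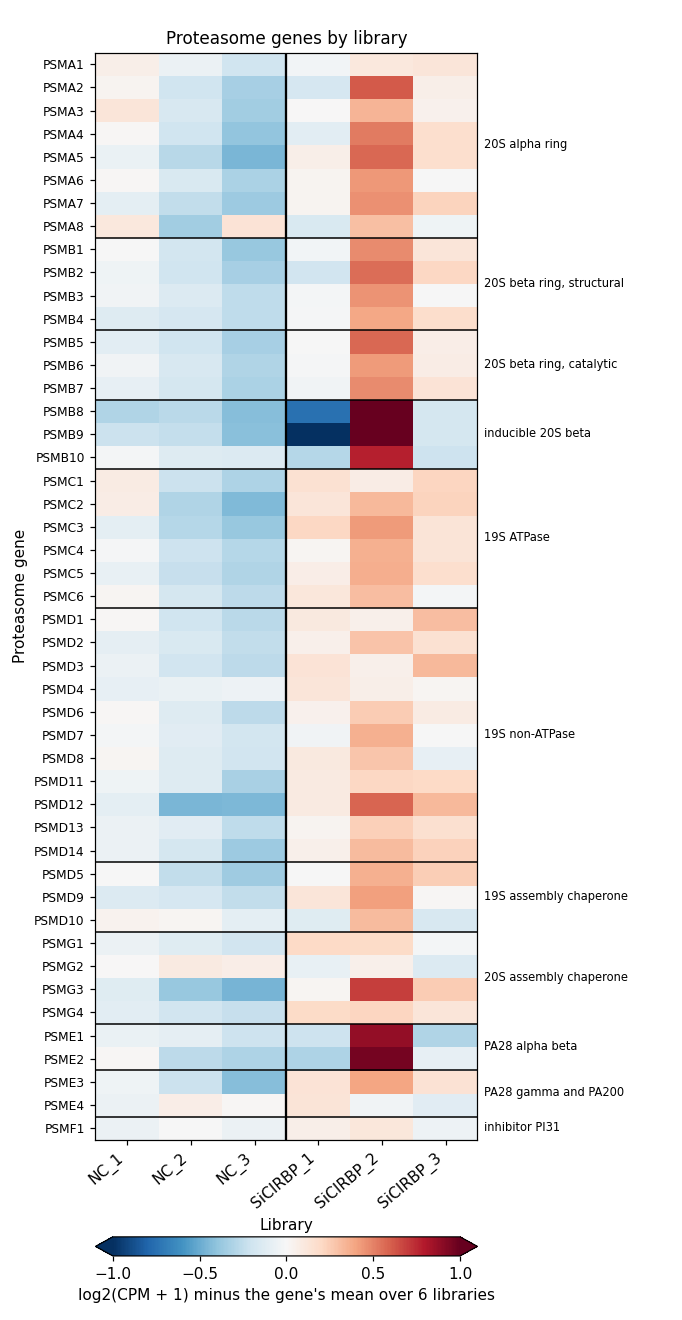
Colour gives log2(CPM + 1) minus the mean of the gene over the 6 libraries (log2 units, red above and blue below the mean, the scale ends at -1 and 1) for each of the 47 genes (rows, grouped by role) in each library (columns). NC_3 is the bluest column for 35 of the 42 constitutive genes and SiCIRBP_2 the reddest for 34 of them. Of all 15217 genes tested, 2924 were lowest in NC_3 and 4727 highest in SiCIRBP_2. PSMB8, PSMB9, PSMB10, PSME1 and PSME2 are dark red in SiCIRBP_2.

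Across all 6 libraries edgeR called 0 of 47 proteasome genes, as it called 0 of 15217 genes overall (0%). At an unadjusted p under 0.05 there were 22 of 47, all higher in SiCIRBP and all constitutive, where 12.1% of all genes were higher at that level. DESeq2 on the same 6 libraries called 3 of them, PSMC3, PSMD12 and PSMG3, where it called 4.48% of genes in that direction. The median log2 fold change of the constitutive genes was 0.34 with 40 of 42 above 0, and that of all genes 0.01 with 50.7% above 0. Every SiCIRBP library exceeded every NC library in 25 of the 42 constitutive genes, or 59.5%, against 16.2% of all genes, and the reverse order was seen in 0 of the 47 against 16.6% of all genes. With 3 against 3 libraries the exact two-sided permutation test of a single gene reaches p = 0.1 at the least, which is the value of each of those 25 genes.

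The constitutive genes differed between libraries of the same group too. Their median log2 level relative to the mean of the 6 libraries was -0.04, -0.18 and -0.29 in NC and 0.04, 0.35 and 0.13 in SiCIRBP, while that of all genes tested stayed between -0.01 and 0.00. NC_1 was above both NC_2 and NC_3 in 37 of the 42 genes (40.4% of all genes), by a median of 0.20 on the log2 scale, and NC_1 is absent from the 4-library comparison. SiCIRBP_2, absent from it too, was above SiCIRBP_1 and SiCIRBP_3 in 35 of 42 (40.1% of all genes). Relative to the mean of the 3 NC libraries, the 14 constitutive ring genes of the core had medians of 0.15, 0.66 and 0.29 in SiCIRBP_1, SiCIRBP_2 and SiCIRBP_3, and the 17 genes of the 19S cap 0.25, 0.45 and 0.36. The core therefore stood above the cap in SiCIRBP_2 and below it in the other SiCIRBP libraries. With SiCIRBP_2 left out, edgeR called PSMC3 and PSMD3 over the remaining 5 libraries, where 3.57% of genes were called higher, and the constitutive median was 0.24. In TPM the contrast was smaller, since the summed level of the 42 genes was 8490, 7838 and 7507 TPM in NC and 8481, 9696 and 9093 TPM in SiCIRBP, NC_1 being level with SiCIRBP_1.

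**Figure D3:**
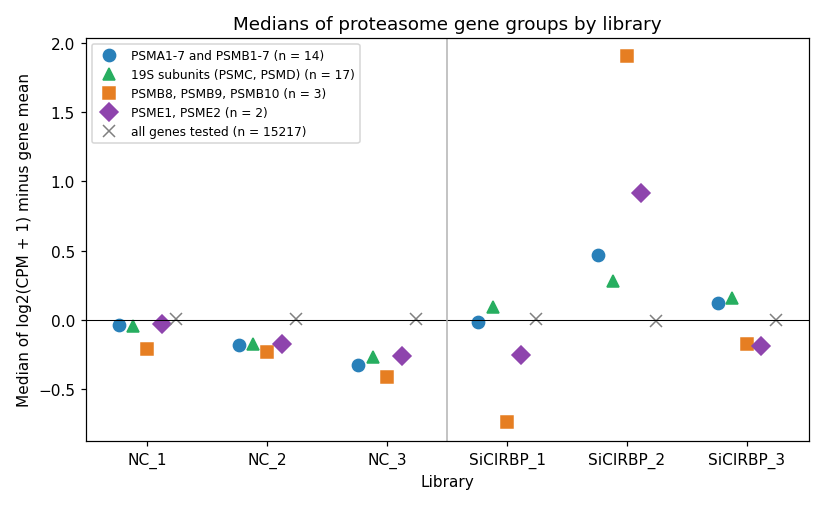
Median over each group of genes of log2(CPM + 1) minus the mean of the gene over the 6 libraries (vertical axis, log2 units) in each library (horizontal axis), for 14 constitutive ring genes, 17 genes of the 19S cap, PSMB8 with PSMB9 and PSMB10, PSME1 with PSME2, and the 15217 genes tested. The inducible groups reach 1.91 and 0.92 in SiCIRBP_2 and lie below 0 in the other 5 libraries.

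The inducible genes stood out in SiCIRBP_2. CIRBP was lowest in SiCIRBP_2 as well, and the part of knockdown depth in these values was not tested. PSMB8 was at 22.6, 23.1 and 20.6 CPM in the NC libraries and 16.4, 108 and 24.8 CPM in the SiCIRBP libraries. PSMB9 was at 9.01, 8.85 and 7.71 CPM in the NC libraries and 3.63, 58.7 and 9.30 CPM in the SiCIRBP libraries. PSMB10 was at 15.8, 14.7 and 14.6 CPM in the NC libraries and 13.0, 28.4 and 13.8 CPM in the SiCIRBP libraries. In each of these SiCIRBP_2 was the highest of the 6 libraries and SiCIRBP_1 the lowest, and SiCIRBP_3 was near the NC values. PSME1 was at 109, 107 and 98.7 CPM in the NC libraries and 98.9, 210.5 and 92.7 CPM in the SiCIRBP libraries. PSME2 was at 117, 96.8 and 93.6 CPM in the NC libraries and 94.0, 227 and 109.6 CPM in the SiCIRBP libraries. SiCIRBP_2 was the highest library here as well, with the other SiCIRBP libraries within or near the NC range. The groups overlapped in all 5 genes.

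In the 4-library comparison the log2 fold changes were -0.09 ± 0.20 (SE), adjusted p = 0.782, for PSMB8, -0.36 ± 0.39 (SE), adjusted p = 0.552, for PSMB9, and -0.13 ± 0.12 (SE), adjusted p = 0.498, for PSMB10. For PSME1 and PSME2 they were -0.10 ± 0.09 (SE), adjusted p = 0.441, and 0.10 ± 0.10 (SE), adjusted p = 0.521. Over all 6 libraries the same genes were at 1.17 ± 0.62 (SE), 1.48 ± 0.85, 0.29 ± 0.29, 0.35 ± 0.30 and 0.48 ± 0.31, with adjusted p between 0.284 and 0.562. The median of the 5 was thus 0.48 over 6 libraries and -0.13 when SiCIRBP_2 was left out, a change of sign that came with 1 library. With SiCIRBP_3 left out of the 4-library comparison, PSMB8 and PSMB9 passed as lower in SiCIRBP, at -0.42 ± 0.11 (SE) and -1.19 ± 0.21. With SiCIRBP_1 left out in its place they were at 0.18 ± 0.11 (SE) and 0.16 ± 0.16 and did not pass, while PSME2 passed as higher at 0.20 ± 0.08 (SE), adjusted p = 0.0383. Part of the sequence of these genes is shared, since 19.1% of the 31-base words of PSMB8 lie in PSMB8-AS1 on the other strand, 30.2% of those of PSMB10 in AC040162.1 on the same strand and 5.14% of those of PSME2 in its pseudogene PSME2P2, and whether the libraries kept strand is not given in the sources used here.

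Other genes that respond to interferon moved with these 5 across the libraries. Of 28 interferon-stimulated genes, 28 were highest in SiCIRBP_2 and 27 lowest in SiCIRBP_1, where 4727 and 2364 of all 15217 genes were. Their median log2 difference from the NC mean was -0.82, 3.47 and 0.83 in SiCIRBP_1, SiCIRBP_2 and SiCIRBP_3. The same medians for the 5 inducible proteasome genes were -0.19, 1.14 and 0.10. All 5 of these were highest in SiCIRBP_2 and 3 were lowest in SiCIRBP_1. TAP1, which carries proteasome products into the endoplasmic reticulum, was at 52.0, 45.9 and 47.5 CPM in the NC libraries and 37.0, 227 and 64.3 CPM in the SiCIRBP libraries. IRF1, a transcription factor of the interferon response, was at 30.3, 22.2 and 22.8 CPM in the NC libraries and 19.5, 68.2 and 31.9 CPM in the SiCIRBP libraries. SiCIRBP_2 was the highest library in both. Of the 12 genes of class I peptide supply, 0 passed in edgeR over the 4 libraries, where 9.62% of all genes passed as higher and 9.76% as lower. At an unadjusted p under 0.05, 1 was higher, where 18.2% of all genes were, and 1 was lower. Of the immune cell markers, PTPRC was at most 0.178 CPM in each library, and CD3E and MS4A1 were at 0 in all 6. CD68 is a macrophage marker that other cells express too. It was at 8.20, 7.73 and 7.87 CPM in the NC libraries and 10.7, 13.5 and 13.7 CPM in the SiCIRBP libraries. It was upregulated in edgeR over the 4 libraries, with a log2 fold change of 0.64, adjusted p = 0.0437, where 9.62% of all genes were. Every SiCIRBP library exceeded every NC library in it. The other immune cell marker that could be tested had a log2 fold change of -0.13 over the 4 libraries. What part immune cells or the interferon response had in these values was not tested. In bulk RNA, more cells of a type and more RNA per cell cannot be told apart.

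Next, the exchange of catalytic subunits was examined at the transcript level by TPM. The constitutive partner was the more abundant transcript of each pair in all 6 libraries. PSMB8 stood at 9.87%, 10.6% and 10.6% of the sum of PSMB8 and PSMB5 in NC and at 6.82%, 23.8% and 9.72% in SiCIRBP. PSMB9 stood at 3.92%, 4.19% and 4.03% of the sum of PSMB9 and PSMB6 in NC and at 1.59%, 16.3% and 3.75% in SiCIRBP. For PSMB10 and PSMB7 the share was 7.05%, 6.96% and 8.02% in NC and 5.87%, 6.98% and 4.93% in SiCIRBP. The share of PSMB8 and PSMB9 was thus higher than in NC in SiCIRBP_2 only, and the share of PSMB10 in SiCIRBP_2 was within the NC range, both PSMB10 and PSMB7 being higher there. The mean log2 ratio over the 3 pairs was -3.78 ± 0.06 (SD, n = 3) in NC and -3.74 ± 1.03 (SD, n = 3) in SiCIRBP, so the groups differed by less than the spread within SiCIRBP. The single values of -4.58, -2.59 and -4.05 in SiCIRBP lay on both sides of all the NC values.

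**Figure D4:**
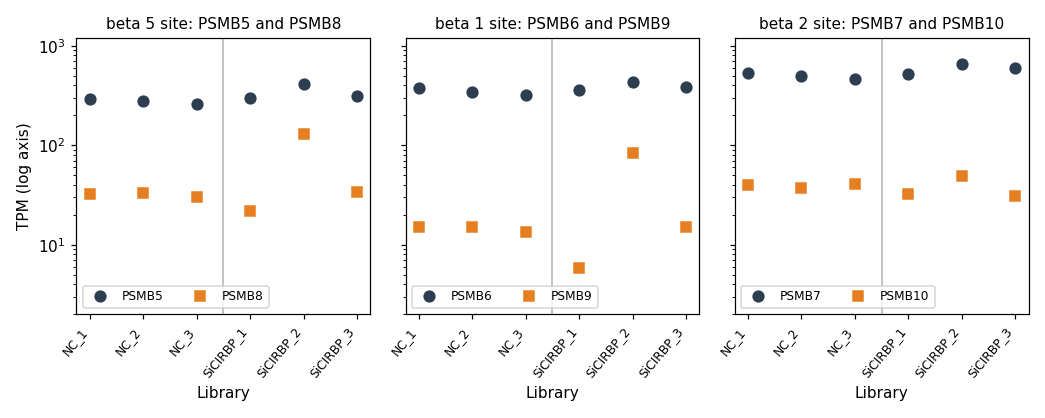
TPM on a log axis of each constitutive catalytic subunit gene (dark circles) and its inducible counterpart (orange squares) in each of the 6 libraries, 1 panel for each catalytic site. The gap narrows in SiCIRBP_2 for PSMB8 and PSMB9, to 130.0 TPM against 416 for PSMB5 and 84.4 TPM against 435 for PSMB6, and widens in SiCIRBP_1.

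By level, PSMA7 was followed by PSMA4 with 584 TPM, PSMB7 with 543, PSMB3 with 539 and PSMB4 with 522 as means of the 6 libraries. The ranges of PSMA4, PSMB7, PSMB3 and PSMB4 overlapped, so their order is not resolved. At the other end PSMG4 was at 31.9 TPM, PSMB9 at 24.8, PSME4 at 24.5 and PSMA8 at 6.14. PSMB9 had the widest spread of these, from 5.79 to 84.4 TPM.

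Some genes work with the proteasome but do not carry the PSM name. Of 17 such partners tested, 2 were upregulated and 1 downregulated over the 4 libraries, where 9.62% of all genes were upregulated and 9.76% downregulated. POMP, the maturation factor of the 20S core, was at 135, 106 and 97.8 CPM in the NC libraries and 134, 233 and 157 CPM in the SiCIRBP libraries, a log2 fold change of 0.52 ± 0.10 (SE), adjusted p = 0.0216. ADRM1, the ubiquitin receptor Rpn13 of the cap, was at 278, 257 and 251 CPM in the NC libraries and 312, 479 and 365 CPM in the SiCIRBP libraries, a log2 fold change of 0.41 ± 0.09 (SE), adjusted p = 0.0295. Both were highest in SiCIRBP_2, as most core genes were. FBXO7, a ubiquitin ligase subunit that binds PSMF1, was downregulated at -0.40 ± 0.09 (SE), adjusted p = 0.0309. Without NC_2 or without NC_3, 0 of these 3 calls passed in edgeR, while DESeq2 on the 4 libraries called all 3.

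In the list around NFE2L1, the transcription factor known to drive proteasome genes when proteolysis falls short, 3 of 12 genes were upregulated and 6 downregulated, where 9.62% and 9.76% of all genes were. NFE2L1 itself was at 209, 220.3 and 227 CPM in the NC libraries and 286, 223 and 261 CPM in the SiCIRBP libraries, a log2 fold change of 0.29 ± 0.08 (SE), adjusted p = 0.0506, and so missed the threshold. VCP, the segregase that pulls the factor out of the membrane, was at 593, 457 and 408 CPM in the NC libraries and 642, 753 and 721 CPM in the SiCIRBP libraries, a log2 fold change of 0.66 ± 0.10 (SE), adjusted p = 0.0102. It was higher in every SiCIRBP library. DDI2, the protease that activates the factor, was at 0.52 ± 0.11 (SE), adjusted p = 0.0216, whereas NGLY1, the glycanase that acts on it, was at -0.54 ± 0.11 (SE), adjusted p = 0.022. The small Maf partners fell, with MAFK at -1.34 ± 0.09 (SE), adjusted p = 0.00262. It had 143, 249 and 278 CPM in the NC libraries and 103, 98.8 and 106 CPM in the SiCIRBP libraries, separate between the groups. MAFF and MAFG followed at -1.03 ± 0.12 (SE), adjusted p = 0.00605, and -0.74 ± 0.11 (SE), adjusted p = 0.00948. MAFK was the single call of the 9 in this list that passed without NC_2 and without NC_3.
UBB, a polyubiquitin gene, was upregulated as well. It was at 1055, 875 and 809.6 CPM in the NC libraries and 1127, 1529 and 1136 CPM in the SiCIRBP libraries, a log2 fold change of 0.43 ± 0.08 (SE), adjusted p = 0.0168. UBA1, the main activating enzyme of ubiquitin, was at 385, 371 and 345 CPM in the NC libraries and 436, 502 and 437 CPM in the SiCIRBP libraries, a log2 fold change of 0.29 ± 0.08 (SE), adjusted p = 0.0438. In both genes every SiCIRBP library was above every NC library. Neither call passed without NC_2 or without NC_3.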

How the data were processed

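Human immortalized cardiomyocytes with NC or CIRBP siRNA were profiled by RNA-seq, with groups and replicate numbers taken from the labels. Per the labels, TRIzol RNA treated with DNase I was sequenced and fastp, HISAT and RSEM were used on hg38, versions not given. The authors deposited an estimated count (reads assigned to the gene, not normalized) for each of 58884 genes per library. The authors also deposited TPM, scaled by transcript length and library. Their tables also hold a log2 fold change, a fold ratio and p-values, which were not used.

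Counts were rounded and tested with edgeR 4.0.16 (R 4.3.3; TMM, filterByExpr, quasi-likelihood test, Benjamini-Hochberg over all genes). SE was derived from the fold change and the F statistic. The main comparison held the study's 4 libraries, without NC_1 and SiCIRBP_2, and all 6 were fitted beside it. Levels per library are CPM under TMM over 6 libraries. Single genes were compared by exact permutation (scipy 1.17.1) on log2(CPM + 1). Positions and 31-base words came from GENCODE 29 and promoters from RefSeq GRCh38.p14.

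Totals were 25726259 to 29919566 counts per library, so counting error is small except for PSMB9, with 106 counts in SiCIRBP_1. Genes named with values are the catalytic, inducible and PSME genes, every call, the extremes of each class, and up to 5 genes of each other list. PSMD4 and PSMF1 were added after their values were seen, and some genes of these lists are not reported here. Alternatives were each library left out, RLE size factors, no filter, at least 10 counts in every library, DESeq2 1.42.0, limma 3.58.1 on log2(TPM + 1), and the replicate block. The members and lists were chosen with earlier results of these data known.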

Additional observations from a re-analysis of the deposited data

How the results depend on the processing

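Over the 4 libraries the count of 17 proteasome genes past the threshold became 0 over all 6 libraries and ranged from 0 to 34 when 1 library was left out. RLE size factors and a minimum of 10 counts in every library left it at 17, no filter gave 22 and DESeq2 21. Over all genes, RLE size factors called 2981 of 15421 in either direction, that minimum 3071 of 14112 and no filter 4615 of 26574. DESeq2 called 10.7% of all genes as higher. The constitutive median of 0.30 ranged from 0.23 to 0.36 with 1 library left out and was 0.20 by limma on log2(TPM + 1), where the median of all genes was -0.08. The inducible median of -0.10 was 0.48 over all 6 libraries and ranged from -0.17 to 0.16 with 1 library left out. In a TPM fit by limma over the 4 libraries, 15 of the 17 called genes lost their call. PSMA5 and PSMC2 were the called genes that kept it. Over all genes the limma fit called 1208 of 15421 in either direction, where edgeR called 2989. Over all 6 libraries the count of 0 became 1 with no filter (PSMD12), 3 with DESeq2, and ranged from 0 to 2 with 1 library left out. No filter called 881 of 28001 genes there in either direction, and DESeq2 called 4.48% as higher. Without SiCIRBP_2, the fit that gave 2, 3.57% of genes were called higher. The constitutive median of 0.34 ranged from 0.24 to 0.40 with 1 library left out, and was 0.17 by limma on log2(TPM + 1). That scale moved the median of all genes to -0.11, so that the constitutive genes stood 0.28 above it. The inducible median of 0.48 ranged from -0.13 to 0.72, the lowest without SiCIRBP_2. The difference in the mean log2 ratio of catalytic pairs, 0.04, ranged from -0.53 to 0.46. The cause of these shifts was not tested beyond the fewer libraries of each fit.

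No label said whether libraries of the same replicate number were paired. Deviations from the group means correlated at -0.12, 0.01 and -0.03 for replicates 1, 2 and 3 over 15217 genes. With so few libraries a group, these values cannot exclude a pairing. With the replicate block over 6 libraries 0 proteasome genes and 1 gene in all passed, the constitutive median was 0.34 and the inducible median 0.38. The 4 libraries share a single replicate number, so no block could be fitted to them.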
